A study of Mus musculus with 8 samples.

Results

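The comparison described here sets 2 brain sections from the combination treatment against 2 sections from anti-PD1 alone, 4 of the 8 sections of the study, and asks what CpG-STAT3ASO adds to checkpoint blockade. The sections were taken by their titles. All come from mice implanted with GL261, a mouse glioma cell line, that received 4 intracranial treatments and were killed on day 21. The anti-PD1 group received anti-PD1, and the combination group received anti-PD1 together with CpG-STAT3ASO. The other 4 sections, 2 with PBS and 2 with CpG-STAT3ASO alone, entered the model for its estimate of spread and, at the end, for the same addition without anti-PD1. The labels give neither mouse strain nor age and do not say that the sections of a group came from separate animals, so p values here reflect spread between sections, which may be technical. Single RNA molecules of a panel of 100 genes were located by in situ hybridization. The anti-PD1 sections held 6652167 and 6369338 molecules in all and the combination sections 1670279 and 3927955, and 0.106 to 0.289% of all molecules carried 1 of 28 codes named as false positives.

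PD-1 is an inhibitory receptor of activated T cells, and antibodies to it release T cells from the brake set by its ligands PD-L1 and PD-L2. CpG DNA is taken up by phagocytes and B cells and sensed by the endosomal receptor TLR9, which signals through NF-kB to cytokine and chemokine genes. In CpG-STAT3ASO such a CpG is joined to an antisense oligonucleotide against Stat3, a transcription factor that restrains antigen presentation in myeloid cells and favours survival in tumour cells. Macrophages and microglia are the most abundant leukocytes of GL261 tumours.

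The compact proliferating mass of the anti-PD1 sections was not found in the combination sections. The labels do not give the level at which a section was cut. A difference in level cannot be told apart from one of treatment here. Each section was divided into square bins with a side of 360 pixels, and a bin with at least 20 molecules counted as tissue (2225, 2358, 2175 and 2405 bins for anti-PD1 replicates 1 and 2 and combination replicates 1 and 2, the order used throughout). Bins were classed by their molecules of Mki67, a marker of cycling cells, and Birc5, the mitotic survival factor survivin. Bins with 100 or more are called dense, those with 10 to 99 intermediate and those with fewer low-proliferation. Dense bins made up 37.2 and 46.2% of tissue with anti-PD1 and 1.01 and 3.24% with the combination (41.7 ± 6.40 against 2.13 ± 1.58%, SD, n = 2 each; two-sided exact permutation p = 0.333, the lowest a design of 2 against 2 can reach). The groups did not overlap.

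The dense bins also differed in arrangement. With anti-PD1 they formed 6 and 7 patches of touching bins, and the largest, of 821 and 1083 bins, held 99.3 and 99.4% of them. With the combination they lay in 22 patches of 1 bin each in replicate 1. In replicate 2 there were 61 patches, 52 of them single bins and none above 5 bins. A dense bin held a median of 495 and 568.5 molecules of the 2 genes with anti-PD1 and of 125 and 117.5 with the combination, so the dense bins of the combination lay close to the class limit.

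Tissue outside the dense class was divided unequally between the 2 combination sections. Intermediate bins made up 9.89 and 7.55% with anti-PD1 and 15.4 and 45.9% with the combination (exact permutation p = 0.333). Low-proliferation bins made up 52.9 and 46.2% with anti-PD1 and 83.6 and 50.9% with the combination (exact permutation p = 0.667), and here the groups overlapped. Dense bins supplied 82.0 and 86.6% of all tissue molecules with anti-PD1 and 1.74 and 5.12% with the combination.

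**Figure D1:**
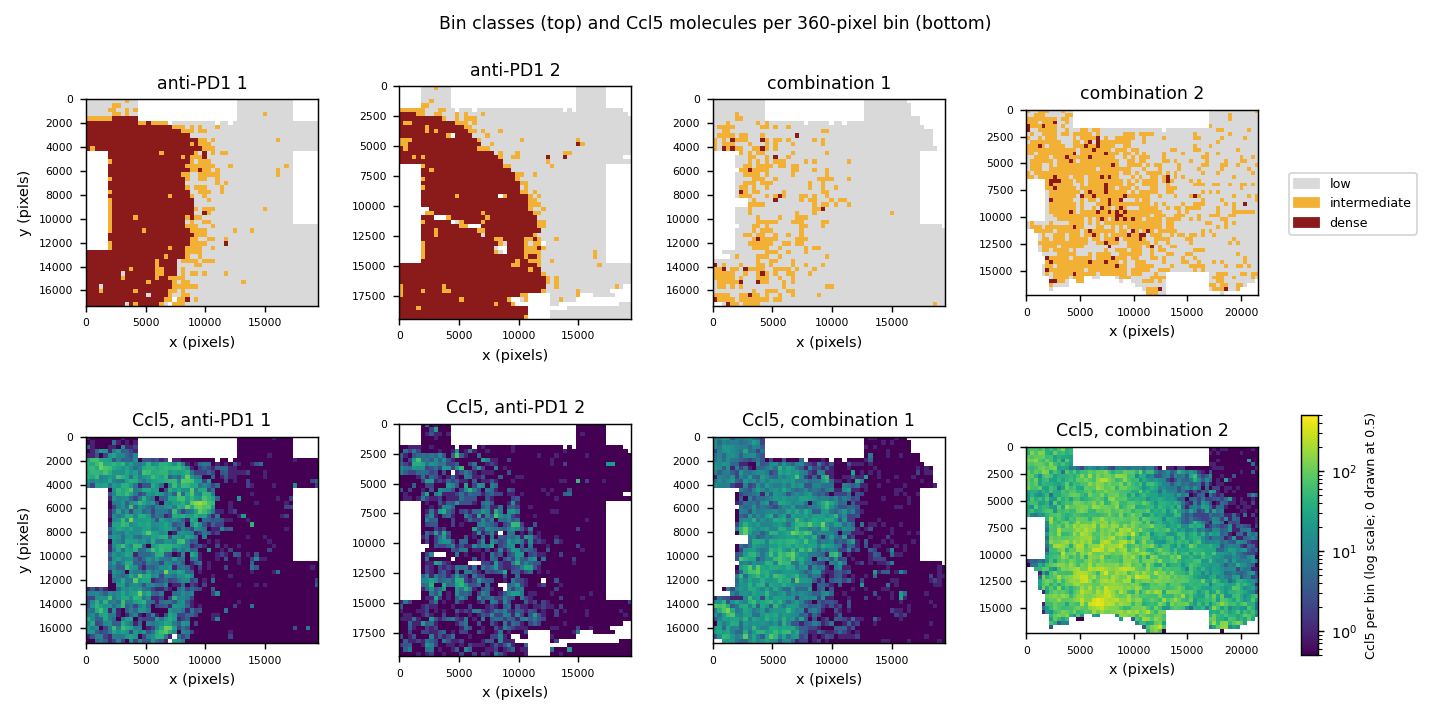
Maps of the 4 sections in pixels, with each 360-pixel tissue bin coloured by class (top) and by its molecules of Ccl5 (bottom, log scale, 0 drawn at 0.5). A continuous dense area fills one side of both anti-PD1 sections, while dense bins are scattered among intermediate bins in the combination sections; Ccl5 covers most bins of combination replicate 2.

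Across whole sections, counts scaled to the same total in every section (CPM, a total of 1e6) were compared as log2(CPM + 1) with limma. The combination changed 28 of 100 genes against anti-PD1 (28% of those tested), 23 higher (23%) and 5 lower (5%). All 28 lay without overlap between the groups, as did 41 genes in all that were higher (41%) and 16 that were lower (16%). The scale matters to these counts, because a tissue bin held 2987 and 2698 molecules with anti-PD1 and 766 and 1631 with the combination. The median log2 difference over the 100 genes was 0.58 by share, -0.76 as molecules per tissue bin and -0.11 after median-of-ratios scaling. Per tissue bin 14 genes passed (14%), 2 higher and 12 lower, and by median-of-ratios scaling 13 (13%), 5 higher and 8 lower. The 28 genes had the same direction in all 3 scalings, and Adgre1, Birc5, Cd68, Gpnmb, Mki67 and Rrm2 passed in all 3.

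Of the 28 genes, 8 passed when any of the 8 sections of the model was left out in turn: Adgre1, Birc5, Ccl3, Ccl5, Cd68, Gpnmb, Mki67 and Spp1. Of the 28, 15 passed without anti-PD1 replicate 1 and 9 without replicate 2, and 13 without combination replicate 1 and 23 without replicate 2. Leaving out a CpG-STAT3ASO section kept 18 and leaving out a PBS section 27. In sections of this kind fewer cells of a type and less RNA per cell cannot be told apart. The panel holds no gene of the neuron, oligodendrocyte and astrocyte lists, so the share of brain tissue was not measured directly.

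The genes that fell were led by genes of cycling cells. Birc5 had 13903 and 24329 CPM with anti-PD1 and 1596 and 2211 with the combination. It fell 10.04-fold (log2 -3.29, SE 0.474, limma adjusted p = 0.000106). Here and below a fold is the ratio of group mean CPM. The log2 value, SE and p beside it belong to the limma difference of mean log2(CPM + 1). Mki67 fell from 48900 and 80414 CPM to 7676 and 10989 (log2 -2.77, SE 0.534, adjusted p = 0.00137), and Rrm2, a subunit of the ribonucleotide reductase needed for DNA synthesis, from 8687 and 15492 to 3555 and 4233 (-1.58, adjusted p = 0.0235). These are the 3 measured proliferation genes, and all 3 fell. The Rrm2 call was lost without anti-PD1 replicate 2 (-1.16, adjusted p = 0.17) or combination replicate 1 (-1.45, adjusted p = 0.0719).

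Gpnmb, a transmembrane glycoprotein gene expressed by tumour cells and by lipid-laden macrophages, fell as strongly. A tissue bin held 235 and 321 of its molecules with anti-PD1 and 10.4 and 13.7 with the combination. By share the fall was 8.97-fold (log2 -3.18, SE 0.627, adjusted p = 0.0015). With anti-PD1, 98.6 and 98.8% of Gpnmb molecules lay in dense bins. With the combination 50.3 and 22.2% lay in low-proliferation bins.

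Of 7 monocyte and macrophage genes 4 rose by share, beside 23% of all genes. Adgre1, which encodes the macrophage receptor F4/80, had 697 and 542 CPM with anti-PD1 and 8364 and 7015 with the combination (12.4-fold, log2 3.64, SE 0.509, adjusted p = 0.000106). Per tissue bin these were 2.08 and 1.46 molecules against 6.40 and 11.4, so the rise did not depend on the scale. Cd68, a lysosomal glycoprotein gene of phagocytes, went from 7.53 and 7.70 to 18.1 and 31.9 molecules per bin (8.02-fold by share, log2 3.0, SE 0.538, adjusted p = 0.000771). Both groups were far apart for both genes, with combination replicate 2 the highest section per bin.

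The 4 genes of the list that rose were Adgre1, Cd68, Csf1r and Csf2rb, and none fell, with a list median of 1.72 beside 0.58 for all genes. Cd14, a lipopolysaccharide coreceptor gene of the same list, was lower without overlap per bin (2.74 and 2.57 against 1.26 and 0.864) and did not pass there (-1.35, adjusted p = 0.0722). Csf1r, the receptor for the macrophage growth factor CSF-1, had 32.5 and 22.6 molecules per bin with anti-PD1 and 35.7 and 50.8 with the combination, a narrow gap that by share became 4.04-fold (log2 2.0, adjusted p = 0.0167). Its call was lost without either anti-PD1 section (2.18, adjusted p = 0.0564, and 1.81, adjusted p = 0.164). Ccr2, the receptor that brings monocytes into tissue, stood at 0.73 (adjusted p = 0.468) and Tgfbi, a matrix protein gene of infiltrating macrophages, at 0.55 (adjusted p = 0.517). Tmem119, a marker of resident microglia, had 40.1 and 52.7 molecules per bin with anti-PD1 and 8.98 and 9.09 with the combination and did not pass by share (-1.0, adjusted p = 0.222). Ly6g, the neutrophil marker, did not exceed the false-positive codes in any of the 4 sections.

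Among 6 genes of activated microglia and lipid handling, 4 rose (Cd68, Spp1, Fabp5 and Msr1) and Gpnmb fell by share, where 23% of all genes rose and 5% fell. Per tissue bin 1 was called higher and 2 lower. Spp1, which encodes osteopontin, had 1174 and 1629 CPM with anti-PD1 and 20546 and 5705 with the combination (9.36-fold, log2 2.97, SE 0.654, adjusted p = 0.00348), and it was highest in combination replicate 1. Msr1, a scavenger receptor gene, overlapped per tissue bin (2.68 and 1.38 against 1.64 and 3.59) and rose by share (1.68, adjusted p = 0.0415), a call lost without either anti-PD1, CpG-STAT3ASO or combination section. Arg1, whose product depletes arginine around myeloid cells, had 502 and 444 CPM against 1351 and 2326 (1.91, SE 0.610, adjusted p = 0.0344). Of the 7 genes of suppressive myeloid cells Arg1 and Msr1 rose, a share near the 23% of all genes, and the list median of 0.33 lay below the 0.58 of all genes. The Arg1 call was lost without either anti-PD1 section or combination replicate 2 (1.51, adjusted p = 0.127).

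Some chemokine genes rose by share. Ccl5, a chemokine gene that draws T cells and monocytes, had 2994 and 912 CPM with anti-PD1 and 12409 and 38914 with the combination (13.1-fold, log2 3.73, SE 0.606, adjusted p = 0.000315). Per tissue bin it had 8.94 and 2.46 molecules against 9.50 and 63.5. The lower combination section was thus barely above the higher anti-PD1 section on that scale, and the per-bin difference did not pass (2.39, adjusted p = 0.134). Ccl3, a chemokine gene of activated macrophages, went from 335 and 321 to 1922 and 2009 CPM (log2 2.58, SE 0.561, adjusted p = 0.00346), with replicates close together. Of 8 chemokine and receptor genes Ccl5 and Ccl3 rose, again near the 23% of all genes, Cxcl10 fell and 5 did not pass, among them Ccl4 (1.76, adjusted p = 0.0599) and Ccl22 (1.88, adjusted p = 0.134).

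Of 7 TLR and NF-kB genes 3 rose and none fell by share, beside 23 and 5% of all genes. None of the 7 passed per bin, nor with median-of-ratios factors. Tlr9 itself had 826 and 460 CPM with anti-PD1 and 2401 and 3059 with the combination (log2 2.14, SE 0.563, adjusted p = 0.0142). This call was lost without anti-PD1 replicate 2 (1.71, adjusted p = 0.152), and per tissue bin the groups overlapped (2.47 and 1.24 against 1.84 and 4.99). Tnf rose from 271 and 157 to 668 and 1463 CPM (2.26, adjusted p = 0.0248), a call lost without anti-PD1 replicate 2 (1.87, adjusted p = 0.164) or combination replicate 2 (1.69, adjusted p = 0.115). Il12b, a subunit gene of the cytokine IL-12, rose by 2.33 (adjusted p = 0.0497). It was at the false-positive level in both anti-PD1 sections and above it in both combination sections. Its call was lost without any anti-PD1 or CpG-STAT3ASO section or combination replicate 1. Il1b stood at -1.02 (adjusted p = 0.257) and Nfkbia, an inhibitor that NF-kB itself induces, at 0.14 (adjusted p = 0.869).

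The costimulatory ligand genes Cd80 and Cd86 rose by share, by 2.0 (adjusted p = 0.0369) and 1.58 (adjusted p = 0.0415). Cd40 (0.27) and Cd74 (-1.32), whose product escorts MHC class II molecules, did not pass. None of these 4 genes passed per tissue bin or by median-of-ratios scaling. Cd74 was uneven between the combination sections, with 24.7 and 336 molecules per bin, against 742 and 452 with anti-PD1. Of 7 genes of the dendritic cell list Flt3, a growth factor receptor gene, rose (2.30, adjusted p = 0.0415) and 6 did not pass, a share below the 23% of all genes. Flt3 took a smaller share of dense than of low-proliferation bins (log2 -2.96 and -5.07 with anti-PD1, -3.98 and -1.22 with the combination). Its difference by share was 0.23 in low-proliferation and 1.64 in dense bins, beside medians of 0.63 and 0.77 over all genes. Which cells held Flt3 molecules was not tested. Xcr1, the marker of cross-presenting dendritic cells, was at the false-positive level in all 4 sections. The calls of Cd80, Cd86 and Flt3 were each lost without either anti-PD1 or CpG-STAT3ASO section or combination replicate 1, where Flt3 stood at 1.45.

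T cell genes gave a weaker and less even picture. Cd8a, which marks cytotoxic T cells, had 1.81 and 1.38 molecules per tissue bin with anti-PD1 and 0.808 and 7.62 with the combination. The combination sections were thus the lowest and the highest of the 4 per bin, and the groups separated only by share (607 and 512 against 1056 and 4674 CPM, log2 1.99, SE 0.715, adjusted p = 0.0462). Without combination replicate 2 the difference was 0.92 (adjusted p = 0.395). The call was also lost without either anti-PD1 section (adjusted p = 0.125 and 0.202) or either CpG-STAT3ASO section (0.0548 and 0.0552). Cd3d, the T cell receptor subunit, stood at 1.33 (adjusted p = 0.253) and was above the false-positive level in 1 anti-PD1 and both combination sections. Of 9 T cell genes Cd8a rose and 8 did not pass, a share below the 23% of all genes. Of 9 genes of cytotoxic and NK cells none passed by share, per bin or by median-of-ratios scaling, with Nkg7, a cytotoxic granule gene, at 0.79 (adjusted p = 0.462) and Ifng at 0.09 (adjusted p = 0.953).

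Among 12 checkpoint genes Lag3 and Havcr2 rose, a share below the 23% of all genes. Lag3, an inhibitory receptor gene, had 476 and 592 CPM with anti-PD1 and 3210 and 1980 with the combination (2.25, SE 0.543, adjusted p = 0.00741), a call lost without combination replicate 1 (1.90, adjusted p = 0.061). Lag3 took a smaller share of dense than of low-proliferation bins in each of these sections. Its difference by share was 0.48 in low-proliferation and 1.94 in dense bins, and it passed in neither class. The medians over all genes were 0.63 and 0.77. Which cells held Lag3 molecules was not tested. Havcr2, which encodes TIM-3 of T cells and myeloid cells, rose by 1.53 (adjusted p = 0.0344). This Havcr2 call was lost without either anti-PD1 or CpG-STAT3ASO section or combination replicate 1. Pdcd1, which encodes PD-1, had 335 and 242 CPM against 607 and 1054 and did not pass (1.49, adjusted p = 0.115). Its ligand genes did not either: Cd274 (PD-L1) stood at 0.47 (adjusted p = 0.638), with 6.49 and 64.0 molecules per bin in the combination sections on either side of the 52.3 and 26.7 of anti-PD1, and Pdcd1lg2 (PD-L2) stood at 0.61 (adjusted p = 0.638).

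Stat3, the transcript targeted by the antisense part of the added agent, had 165 and 184 molecules per tissue bin with anti-PD1 and 32.7 and 48.5 with the combination. This difference passed per bin (log2 -2.13, adjusted p = 0.0381) and not by share, where 55402 and 68368 CPM stood against 42708 and 29714 (-0.79, SE 0.599, adjusted p = 0.36). Both combination sections lay below both anti-PD1 sections on either scale. Of 5 genes of the Stat3 list only Birc5 fell by share, and Vegfa, an angiogenic factor gene, stood at -0.19 (adjusted p = 0.864).

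Interferon-induced chemokine genes split the combination sections. Cxcl10, which recruits T cells through CXCR3, had 203 and 78.6 molecules per bin with anti-PD1 and 2.37 and 41.1 with the combination. By share it fell (log2 -2.33, SE 0.813, adjusted p = 0.0415), but without combination replicate 1 the difference was -0.82 (adjusted p = 0.325). Leaving out either anti-PD1 or either CpG-STAT3ASO section also lost the call. Cxcl9, a ligand of the same receptor, had 8.95 and 2.56 molecules per bin against 0.0883 and 7.16 and did not pass (-1.24, adjusted p = 0.456). Combination replicate 1 was the lowest of the 4 sections for both genes. The interferon list has 6 genes, of which 5 did not pass, and Ifnb1 was at the false-positive level in all 4 sections.

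Cxcl9 and Cxcl10 are neighbouring genes, and their promoters are shown because Cxcl10 fell by share and Cxcl9 returns below as a gene whose difference depended on tissue class. Each window runs from 250 bases before to 50 bases after the start in RefSeq on GRCm38.p6, 5′ to 3′ on the minus strand, at chr5:92328030-92328329 and chr5:92348840-92349139. Capitals mark matches, on either strand, to an NF-kB pattern (GGG and CC with any 5 bases between) and an interferon-stimulated response element (ISRE) pattern (GAAA and GAAA with any 2 bases between).
Cxcl9: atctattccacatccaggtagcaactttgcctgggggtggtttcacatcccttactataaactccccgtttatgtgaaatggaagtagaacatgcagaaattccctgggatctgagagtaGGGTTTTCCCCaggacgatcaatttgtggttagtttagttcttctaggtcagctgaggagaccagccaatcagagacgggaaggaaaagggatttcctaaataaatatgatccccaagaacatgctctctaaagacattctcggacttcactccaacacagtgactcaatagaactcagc
Cxcl10: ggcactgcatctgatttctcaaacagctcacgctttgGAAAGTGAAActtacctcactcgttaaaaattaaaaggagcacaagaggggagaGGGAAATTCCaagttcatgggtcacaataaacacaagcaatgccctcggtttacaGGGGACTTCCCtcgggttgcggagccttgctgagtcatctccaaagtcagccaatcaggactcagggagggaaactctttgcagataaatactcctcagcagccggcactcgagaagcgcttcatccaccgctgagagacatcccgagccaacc
The Cxcl9 window held 2 overlapping NF-kB matches and no ISRE match. The Cxcl10 window held 3 NF-kB matches, 2 of them overlapping, and 1 ISRE match. Neither held the STAT pattern (TTC and GAA with any 3 bases between). Among the promoters of 27025 genes 50.4% held the NF-kB pattern, 8.47% the STAT pattern and 3.49% the ISRE pattern, so the NF-kB match by itself sets neither gene apart. A match describes the letters only.

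**Figure D2:**
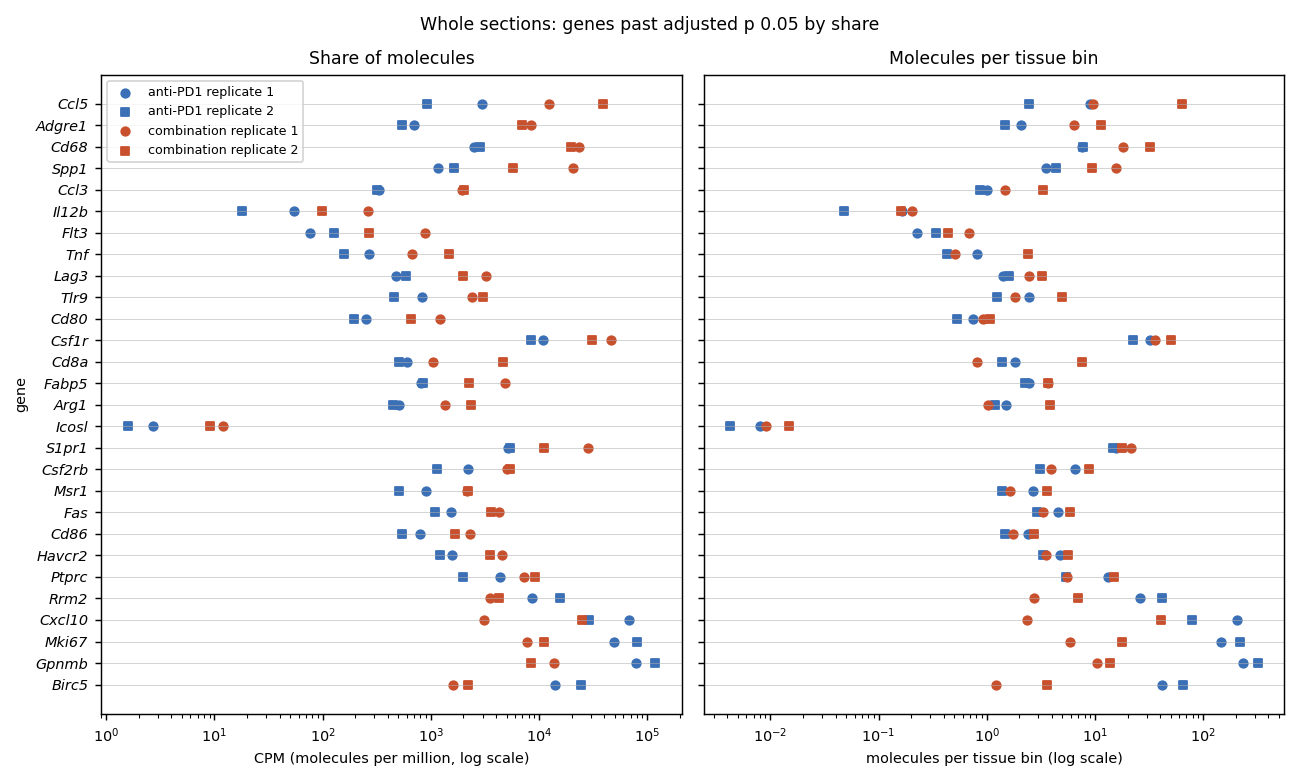
Values of the 28 genes past an adjusted p of 0.05 by share, per section (circles replicate 1, squares replicate 2), as CPM on the left and as molecules per tissue bin on the right, both on log axes. On the left the groups never overlap; on the right many of the genes that rose by share overlap, while Adgre1 and Cd68 stay apart and the 5 genes that fell are all lower.

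The low-proliferation bins show what changed outside the proliferating tissue. There the combination raised 10 of 98 genes (10.2%) and lowered none (0%). Ccl5 had 0.921 and 0.375 molecules per low-proliferation bin with anti-PD1 and 7.09 and 37.5 with the combination (log2 by share 4.31, SE 0.740, adjusted p = 0.0135). Msr1 went from 0.115 and 0.0642 to 0.862 and 1.53 (3.25, SE 0.587, adjusted p = 0.0135) and Adgre1 from 0.810 and 0.907 to 5.18 and 6.58 (2.28, SE 0.485, adjusted p = 0.029). For Adgre1 the replicates of each group were close, while for Ccl5 combination replicate 2 stood well above replicate 1.

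Gpnmb, which had fallen over whole sections, was among the genes that rose here. A low-proliferation bin held 0.951 and 1.08 of its molecules with anti-PD1 and 6.28 and 5.98 with the combination (log2 2.11, SE 0.582, adjusted p = 0.0476). The others were Ifng (3.23), Cd8a (2.56), Tgfbi (2.19), Pdcd1 (2.09), Ccl3 (1.87) and Csf2rb (1.71), the last a shared receptor subunit for GM-CSF, each with an adjusted p of 0.0476. Ifng was at the false-positive level in both anti-PD1 sections and above it only in combination replicate 2. Cd8a had 0.252 and 0.153 molecules per low-proliferation bin against 0.603 and 4.37, and Pdcd1 0.114 and 0.0982 against 0.366 and 1.09. Both combination sections were above both anti-PD1 sections for each of the 10 genes, and per bin replicate 2 was the higher for all but Gpnmb.

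Counts for the gene lists in low-proliferation bins stand beside those of all genes tested there. Of all genes 10.2% were called higher by share and 60.2% were higher without overlap per bin. Of 7 monocyte and macrophage genes 3 rose, and all 7 were higher without overlap per bin. Their summed level was 29.5 and 28.7 molecules per bin with anti-PD1 and 60.3 and 90.3 with the combination. Dendritic cell genes had 0 of 7 called and suppressive myeloid genes 1 of 7, with medians of 0.23 and 0.55 beside 0.63 for all genes. Of 8 cytotoxic and NK genes tested Ifng rose, a share near that of all genes, and 7 were higher without overlap per bin. The list median was 1.66, and its summed level was 0.698 and 0.374 against 1.11 and 4.84. T cell genes summed to 41.2 and 16.5 against 24.3 and 34.0, since Cd4 makes up most of that sum. Of the 9 genes 1 rose, again near the share of all genes, with 7 higher without overlap per bin. Cd4 took a smaller share of dense than of low-proliferation bins (log2 -6.13 and -6.22 with anti-PD1, -1.03 and -4.54 with the combination). Which cells held Cd4 molecules was not tested, so this sum is not read as a level of T cells. Stat3 had 30.0 and 31.6 molecules per low-proliferation bin with anti-PD1 and 30.1 and 47.9 with the combination (-0.18 by share, adjusted p = 0.807).

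These 10 calls rest on few sections. Of the 10, none passed without anti-PD1 replicate 2 and 2 without replicate 1. Without combination replicate 2 or a CpG-STAT3ASO section 3 passed, and without combination replicate 1 or a PBS section 7. By median-of-ratios scaling none passed (0%), with 23 genes at an unadjusted p under 0.05, and per bin 14 passed, all higher (14.3%). By share 43.9% of all genes were higher without overlap and 6.12% lower. With the 4 combination and anti-PD1 sections alone none passed, with 25 at an unadjusted p under 0.05.

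Position within the section moved with this result. The low-proliferation bins of the combination sections lay partly on the side that the dense mass occupied with anti-PD1. Bins at an x of 12000 pixels or more, away from that side, were 814 and 796 with anti-PD1 and 786 and 846 with the combination, or 69.1, 73.0, 43.2 and 69.2% of all low-proliferation bins. Their limit was chosen after the maps were seen, and section orientation is not in the labels. Within them no gene passed by share or per bin, with 7 and 5 genes at an unadjusted p under 0.05.

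The 2 combination sections parted there. Ccl5 had 0.308 and 0.188 molecules per bin with anti-PD1 and 0.487 and 22.8 with the combination beyond that limit, against 2.29, 0.881, 12.1 and 70.3 before it. Adgre1 had 0.732 and 0.843 against 1.52 and 3.95 beyond the limit, and 0.984 and 1.08 against 7.97 and 12.5 before it. In combination replicate 1 the high Ccl5 of low-proliferation bins was thus found on the side that the mass held with anti-PD1, whereas in replicate 2 it extended across the section. Cd68 beyond the limit had 4.53 and 3.55 against 4.79 and 7.25, and Gpnmb 0.280 and 0.530 against 0.584 and 1.18. Cd4 had 41.1 and 11.96 against 14.2 and 32.2 there. The other T cell markers were far lower, with Cd3d at 0.0086 and 0.0038 against 0.018 and 0.173. Cd8a stood at 0.172 and 0.118 against 0.252 and 3.98.

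**Figure D3:**
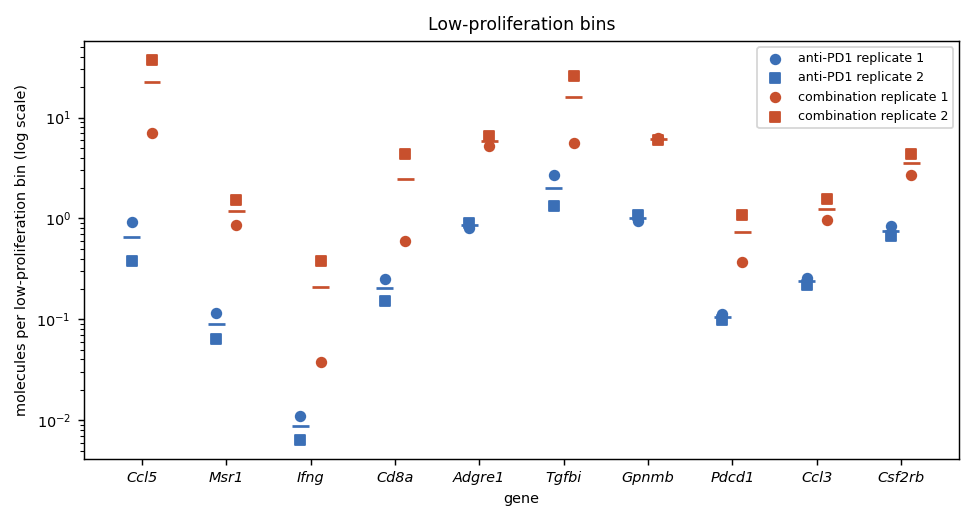
Molecules per low-proliferation bin (log scale) of the 10 genes that passed there by share, for each section, with lines at the group means. Every combination section lies above every anti-PD1 section, and the combination sections differ most for Ccl5, Ifng, Cd8a and Tgfbi.

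In intermediate bins 5 of 95 genes passed, all higher (5.26%): Adgre1 (2.93, adjusted p = 0.0232), Ccl3 (2.45), Msr1 (2.59), Cd68 (2.72) and Ccl5 (2.99). Adgre1 had 2.21 and 1.04 molecules per bin with anti-PD1 and 12.4 and 16.1 with the combination. Cd68 had 7.11 and 4.22 against 41.6 and 47.0, again with close combination sections. Mki67, which with Birc5 defines the class, had 32.0 and 33.2 against 25.7 and 28.6. None of the 5 calls was kept without anti-PD1 replicate 2 or without either combination section, and 4 were kept without anti-PD1 replicate 1. Per bin 2 genes passed (2.11%) and by median-of-ratios scaling 3 (3.16%).

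In dense bins 20 of 98 genes rose by share (20.4%) and none fell. The macrophage receptor gene Adgre1 had 3.85 and 2.08 molecules per dense bin with anti-PD1 and 15.3 and 21.5 with the combination (log2 by share 4.32, SE 0.544, adjusted p = 0.00393). Cd68 had 11.6 and 12.3 against 51.1 and 67.1 (3.94, SE 0.683, adjusted p = 0.0072), and Sirpa, the receptor for Cd47 on phagocytes and neurons, 27.4 and 22.8 against 114 and 117 (3.85, SE 0.574, adjusted p = 0.00634). These are the 3 genes that passed in all 3 scalings there. Ccl5 (4.13), Tnf (3.47), Ccl3 (3.34) and Fas, a death receptor gene (2.93), also rose. Adgre1, Ccl3, Ccl5 and Sirpa passed whichever section was left out. Of the 20, 4 passed without combination replicate 1, 10 without replicate 2, 11 without anti-PD1 replicate 1 and 7 without replicate 2.

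Per dense bin most differences ran the other way, since a dense bin held 6590 and 5053 molecules with anti-PD1 and 1317 and 2576 with the combination. There 23 genes passed (23.5%), 3 higher (3.06%) and 20 lower (20.4%), and by median-of-ratios scaling 21 (21.4%), 11 higher and 10 lower. The median log2 difference there was 0.77 by share and -0.88 per bin. Stat3 had 381 and 355 molecules per dense bin with anti-PD1 and 57.0 and 53.6 with the combination (-2.74 per bin, adjusted p = 0.00313; -1.09 by share, adjusted p = 0.152). Gpnmb had 623 and 685 against 40.7 and 31.2 (-4.2 per bin, adjusted p = 0.00215; -2.55 by share, adjusted p = 0.0646).

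Dense bins of the 2 groups hold unequal amounts of the class genes, so bins with at least 100 and fewer than 200 molecules of Mki67 and Birc5 were compared alone, a choice made after the data were seen. By share 5 of 91 genes passed there (5.49%), all higher and all among the 20: Adgre1, Ccl3, Ccl5, Cd68 and Sirpa. All 20 were higher by share and per bin, where the medians over all genes were 0.57 and 0.17. These bins are part of the dense bins from which the 20 were taken, so their direction here is no separate support. In these bins Adgre1 had 2.39 and 1.24 molecules per bin with anti-PD1 and 16.6 and 21.4 with the combination (3.85 by share, adjusted p = 0.00661). Sirpa had 38.5 and 20.9 against 113 and 116. Stat3 had 133.6 and 138.8 against 56.4 and 54.0 (-1.30 per bin, adjusted p = 0.122), and Gpnmb 228 and 220 against 43.3 and 26.6 (-2.72 per bin, adjusted p = 0.0265).

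Across the 3 classes Adgre1, Ccl3, Ccl5 and Msr1 passed by share in each. The difference between combination and anti-PD1 was then compared between dense and low-proliferation bins of the same sections, and 11 of 95 genes differed (11.6%), 8 with a larger value in dense bins (8.42%) and 3 with a smaller one (3.16%). Gpnmb showed the clearest split. Its log2 share in dense minus low-proliferation bins was 6.18 and 6.32 with anti-PD1 and 1.80 and 1.38 with the combination (difference -4.66, SE 0.334, adjusted p = 0.000435). Cxcl9 went from 3.69 and 3.44 to -1.16 and -0.91 (-4.60, SE 0.388, adjusted p = 0.000602). With anti-PD1, 94.1 and 97.8% of Cxcl9 molecules lay in dense bins, and with the combination 52.6 and 48.4% lay in low-proliferation bins. The combination replicate 1 value rests on 1 Cxcl9 molecule in its 22 dense bins, which is within the false-positive level, against 568 in replicate 2 and 18726 and 5897 with anti-PD1. Without that section the difference was -4.48 (adjusted p = 0.00969). Cxcl10 did not pass (-1.58, adjusted p = 0.31), with 3.16 and 4.60 against 3.78 and 0.818.

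Sirpa gave the largest shift the other way, from -5.47 and -5.87 to -1.23 and -0.996 (4.55, SE 0.639, adjusted p = 0.00869). It took a smaller share of the molecules of dense bins in all 4 sections, by a lesser margin with the combination. S1pr1, a sphingosine receptor gene, and Fabp5, a fatty acid-binding protein gene, showed the same pattern. By share Cd68 changed sign, from -1.89 and -1.25 to 1.04 and 1.06 (2.62, adjusted p = 0.0266). As molecules per bin its class difference did not pass (0.49, limma adjusted p = 0.415). The Gpnmb and Cxcl9 calls were kept whichever section was left out. Without anti-PD1 replicate 1, 3 of the 11 were kept, and 2 without anti-PD1 replicate 2 or without either combination section. As molecules per bin 55 genes differed, 54 of them with a smaller value in dense bins and only Sirpa with a larger one.

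**Figure D4:**
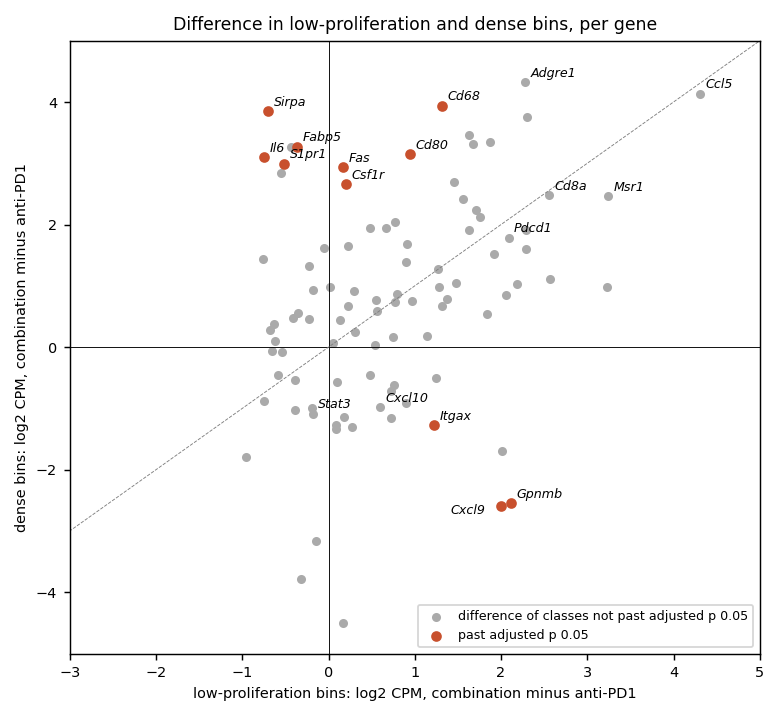
Each point is a gene, with the log2 CPM difference of combination minus anti-PD1 in low-proliferation bins (horizontal) and in dense bins (vertical), the dashed line marking equal differences. Red points are the 11 genes whose difference between the classes passed an adjusted p of 0.05; Gpnmb, Cxcl9 and Itgax lie below the line and Sirpa, Cd68, Fabp5 and 5 others above it.

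Molecules per bin were also computed at the mean makeup of the anti-PD1 sections (41.7% dense, 8.72% intermediate and 49.6% low-proliferation bins). This evens the share of each class but not what a class holds. A dense bin held a median of 495 and 568.5 molecules of Mki67 and Birc5 with anti-PD1 and of 125 and 117.5 with the combination. Class makeup and change within classes are therefore not fully separated here. At the observed makeup 13 genes were higher without overlap (13%) and 44 lower (44%). At the common makeup 21 were higher (21%) and 39 lower (39%). Gpnmb stood at 234.7 and 320.6 observed molecules per bin with anti-PD1 and 10.4 and 13.7 with the combination, and at 262.5 and 290.1 against 22.8 and 17.8 at the common makeup. Stat3 was likewise lower at the common makeup, with 180.8 and 170.3 against 42.6 and 50.3. Adgre1 was higher, with 2.20 and 1.41 against 10.02 and 13.6. Cd8a overlapped on both, with 1.95 and 1.27 against 1.27 and 10.2 at the common makeup. These values carry no test, and the dense class of the combination rests on 22 and 78 bins.

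The share of tissue bins that held a molecule of a gene rose for some genes and fell for others. Its median over genes was 46.8% with anti-PD1 and 43.6% with the combination. Ccl5 was present in 52.7 and 41.2% of tissue bins with anti-PD1 and in 64.6 and 92.6% with the combination, and Adgre1 in 64.9 and 60.3% against 81.8 and 93.2%. Cd8a was present in 32.0 and 25.5% against 20.05 and 56.9%, so that here too the combination sections lay on either side of anti-PD1. Cxcl9 was present in 41.6 and 32.9% against 4.6 and 77.4%. Over all genes, 23 were present in more bins without overlap and 20 in fewer. With bins of 180 pixels the split was 13 and 29, so the direction of this count depends on bin size.

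Around molecules of Cd8a and Cd3d, used as markers of T cells, the neighbourhood did not change by the test. The sections held 4601, 3482, 1940 and 19033 such molecules. The density of each gene within 100 pixels was divided by that in a ring of 400 to 600 pixels. Genes of cytotoxic lymphocytes were the most enriched in the 4 sections. Gzma, a granzyme gene, had log2 ratios of 2.16 and 3.68 with anti-PD1 and 5.21 and 2.31 with the combination, and Nkg7 of 2.32 and 3.65 against 4.2 and 2.95. Pdcd1 had 2.25 and 3.59 against 3.33 and 2.76. By limma 0 of 98 genes differed between the groups (0%), with 9 at an unadjusted p under 0.05, and the count stayed at 0 with radii of 50 and 200 pixels. Il16, a chemoattractant for CD4 cells, came nearest, from 0.56 and 0.49 to 1.61 and 1.47 (difference 1.02, SE 0.210, limma adjusted p = 0.3).

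The 4 remaining sections give the same addition of CpG-STAT3ASO without anti-PD1, from sections that share none with the comparison above. Both comparisons were fitted in the same model and share its estimate of spread for each gene. Passing in both is therefore not independent. CpG-STAT3ASO against PBS changed 25 of 100 genes (25%). Of the 28 genes changed by the combination against anti-PD1, 27 had the same sign there and 19 passed in both; over all genes 78 of 100 had the same sign. Adgre1 stood at 3.64 with and 3.30 without anti-PD1, Ccl5 at 3.73 and 2.96, Birc5 at -3.29 and -2.78, and Gpnmb at -3.18 and -3.31. In dense bins 27 of 98 genes passed without anti-PD1 (27.6%), and 17 of the 20 found with anti-PD1 were among them. In intermediate bins 1 of 95 passed without anti-PD1 (1.05%), Adgre1 (2.80). In low-proliferation bins 0 of 98 passed without anti-PD1 (0%; 8 at an unadjusted p under 0.05, and 0 by voom), and 9 of the 10 genes found with anti-PD1 had the same sign, beside 72 of all 98.

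The difference between the 2 additions was itself tested and called no gene over whole sections (3 at an unadjusted p under 0.05, and 0 by voom), nor in low-proliferation bins (5 at an unadjusted p under 0.05, and 0 by voom). The 10 calls of low-proliferation bins are therefore not shown to be particular to the addition to anti-PD1. For the class difference (dense minus low-proliferation bins) the same test called 1 of 95 genes (1.05%), Cxcl9, at -4.60 with and 0.54 without anti-PD1 (difference -5.15, SE 0.549, adjusted p = 0.00509). That value includes the single molecule of combination replicate 1. Without that section it was -5.02 (adjusted p = 0.0399), and the call was lost without anti-PD1 replicate 1 (adjusted p = 0.0588). Among the 28 genes called over whole sections Arg1 alone had opposite signs. It had 502 and 444 CPM with anti-PD1 and 1351 and 2326 with the combination, but 1219 and 1547 with PBS and 740 and 321 with CpG-STAT3ASO alone (1.91 and -1.49, difference 3.40, SE 0.862, adjusted p = 0.102). Spp1 stood at 2.97 with and 0.69 without anti-PD1 (difference 2.28, SE 0.925, adjusted p = 0.955).

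**Figure D5:**
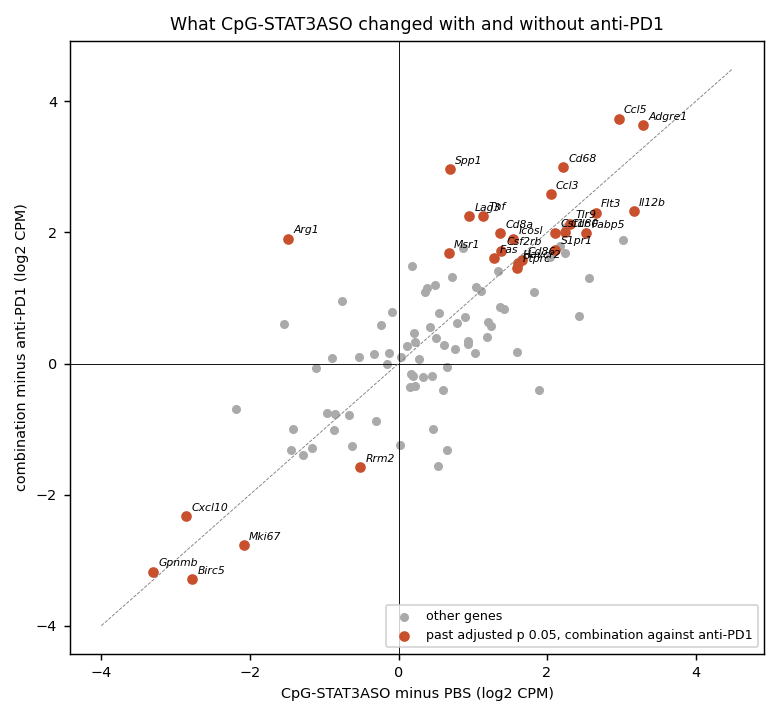
Each point is a gene, with the log2 CPM difference of CpG-STAT3ASO minus PBS (horizontal) against combination minus anti-PD1 (vertical); red points passed an adjusted p of 0.05 in the second, and the dashed line marks equal differences. Of the 28 red points 27 have the same sign on both axes, and Arg1 is the exception.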

How the data were processed

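For each section the deposited table gives 1 molecule per line by x, y and z position and target name, made by the authors with Resolve in situ hybridization per the labels; position values are of a unit other than counts or expression and, being in pixels of unstated size, give distances in pixels only. The submitters' processing notes name Seurat 4.2.0; spot calling is not given in the sources used here. Targets named FP (28 codes) were read as false-positive codes and left out; a gene was at their level when its molecules did not exceed their 90th percentile in that section.

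Molecules were tallied per section and per 360-pixel bin (180 and 720 as alternatives, with the tissue minimum and class limits scaled by area). Log2(CPM + 1), restricted to genes averaging 10 or more molecules over the sections, was fitted by limma 3.58.1 (R 4.3.3; lmFit, eBayes with trend, no trend for surroundings) with 4 group means over 8 sections and Benjamini-Hochberg adjustment over all genes tested (threshold 0.05, two-sided). Per-bin values were log2 of molecules per 1000 bins plus 1. Median-of-ratios scaling, voom, other pseudocounts and filters, other class limits, left-out sections and replicate blocks were alternatives. Scripts were tested on simulated data. The members, lists and tests were chosen with earlier results of these data known. The 2 genes that define the bin classes are no findings within them. The rule for named genes takes, in each direction, at most 12 non-overlapping genes past the threshold, largest change first, a set list (Stat3, Tlr9, PD-1 and ligands, T cell, microglial and proliferation genes, Arg1, Ifnb1) and the 3 highest members of each of 21 lists; 82 of their 167 genes are on the panel, and other genes named were chosen after their values were seen. Promoters were matched by symbol for 66 of 100 genes. Each section is 1 sample, and 2 sections a group limit the precision.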

Additional observations from a re-analysis of the deposited data

Results flagged for a closer look

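For 11 genes the difference between combination and anti-PD1 itself differed between dense and low-proliferation bins by limma. On the log2 scale, as dense minus low-proliferation, this was -4.66 for Gpnmb, -4.60 for Cxcl9 and -2.50 for Itgax, the CD11c gene of myeloid cells. It was 4.55 for Sirpa, 3.85 for Il6, 3.64 for Fabp5, 3.51 for S1pr1, 2.76 for Fas, 2.62 for Cd68, 2.46 for Csf1r and 2.20 for Cd80. All these values are by share. As molecules per bin Gpnmb, Cxcl9 and Itgax passed as well. On that scale 54 of 95 genes passed with a smaller value in dense bins, and the median over all genes was -2.12. Passing in that direction per bin thus does not set these genes apart. Of the genes with a larger value in dense bins only Sirpa passed on that scale (2.42, limma adjusted p = 0.0159). Cd68 (0.49), Csf1r (0.33) and Cd80 (0.07) were the furthest from passing per bin. Adjusted p values ran from 0.000435 for Gpnmb to 0.0352 for Csf1r. Il6 was at the false-positive level in dense bins of both anti-PD1 sections, and Cxcl9 in those of combination replicate 1, with 1 molecule. For Cxcl9 this class difference also differed between the additions with and without anti-PD1, by -5.15 (SE 0.549, limma adjusted p = 0.00509), a call lost without anti-PD1 replicate 1 (adjusted p = 0.0588). The dense class held 827 and 1090 bins with anti-PD1 and 22 and 78 with the combination, and the part of this imbalance in the differences was not tested.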

How the results depend on the processing

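Over whole sections the count of 28 genes became 14 as molecules per bin and, by median-of-ratios scaling, 13. The 26 named genes among them kept their direction under the 18 alternatives, 5 of them (Adgre1, Birc5, Cd68, Gpnmb and Mki67) their call too. The 10 calls of low-proliferation bins became 0 by median-of-ratios scaling, 0 with the 4 sections alone, 3 by voom, 4 without a trend, and 0 both by share and per bin beyond x 12000. The 5 of intermediate bins became 2 per bin, 3 by median-of-ratios scaling and 0 without a trend or by voom. The 20 of dense bins became 10 with class limits of 20 and 200, where Il12b reversed to -4.97, and 5 by share and 3 per bin in bins with at least 100 and fewer than 200 molecules. The 11 class differences became 55 per bin, 22 with limits of 5 and 50 and 6 with 20 and 200. The 25 genes of CpG-STAT3ASO against PBS became 12 per bin and 13 by median-of-ratios scaling. With bins of 180 pixels 13 genes were present in more bins, and 8 had a lower share of molecules in the top 1% of bins. The cause of these shifts was not tested. Leaving out 1 section gave 9 to 34 genes over whole sections, 0 to 16 in low-proliferation, 0 to 7 in intermediate and 4 to 26 in dense bins, 2 to 15 class differences, 0 around T cell markers, 5 to 33 for CpG-STAT3ASO against PBS and 0 to 2 for the difference between the additions. The difference in class share ran from 1.27 to 34.0 points for low-proliferation, 6.68 to 37.2 for intermediate and -44.1 to -35.0 for dense bins.

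Same-numbered sections did not correlate above 0.1 in every pair of groups, so the numbers were not taken as pairing: over whole sections the correlation was -0.31 for anti-PD1 and combination, and over the 6 pairs it ran from -0.53 to 0.59. With the replicate block 31 genes passed over whole sections, 2 in low-proliferation, 4 in intermediate and 23 in dense bins and 10 class differences. The crossed pairing, added after the data were seen, gave 34, 25, 10 and 28. Voom was not run around T cell markers. Depth limits genes at the false-positive level, such as Ifng in low-proliferation bins.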
